A study of Mus musculus with 12 samples.

Results

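Type I interferon-stimulated effector genes encode the proteins that carry out the antiviral program of a cell after interferon alpha or beta binds its receptor. The 40 genes described here were chosen by name, as the entries of the deposited gene table whose symbol equals one of 40 listed symbols, and all 40 were found among the 54833 genes of the table. They fall into 10 families: Ifit (4 genes), Oas (7), Mx (2), the ISG15 system (4), Parp with Dtx3l (4), Slfn (2), nucleotide and RNA effectors (6), membrane effectors (3), nuclear and tripartite-motif effectors (3) and other effectors (5). RNA was sequenced from the caudate putamen around the injection site of mice with intracerebral hemorrhage (ICH) or sham surgery, to ask how the transcriptome responds to a hemorrhage in young and in aged brain. All mice were male C57BL/6 wild type. Ages were 8 to 10 weeks in the young groups and 20 to 22 months in the aged groups. ICH mice received type IV collagenase, which breaks down the vessel wall, in the caudate putamen, sham mice received saline, and tissue was taken after 24 h. Each of the 4 groups, sham and ICH at each age, had 3 libraries, and every library pooled tissue of 2 or 3 mice, so that *P* values measure the spread between pools and not between single mice.

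Interferon alpha and beta signal through a shared receptor of the chains Ifnar1 and Ifnar2, whose kinases Jak1 and Tyk2 start the signal. Stat2 and Irf9 then act in a complex that binds interferon-stimulated response elements (ISREs) in the promoters of its target genes. The target genes are known for restricting viruses by binding their RNA, slowing translation or blocking entry, and in the brain microglia, infiltrating leukocytes, endothelial cells and astrocytes are all known to express them after injury.

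Total counts ranged from 28410896 in aged ICH 2 to 37785160 in young sham 1 (libraries are named by group and replicate number). All 40 members passed the filter on low counts and were tested among 21495 genes, and the lowest count of a member in a library was 5, for Oas3. Levels are given as CPM (counts scaled to a common library size), with library sizes adjusted by the trimmed mean of M values (TMM). Upregulated means a higher level with an adjusted *P* under 0.05 by edgeR's quasi-likelihood test with Benjamini-Hochberg adjustment over all genes tested, abbreviated as edgeR adjusted *P*. The criterion of the study, FC over 1.5 with an unadjusted *P* under 0.05, applied here to edgeR values although the study used DESeq2, is given beside it. Young and aged ICH were each compared with the sham group of the same age, and all 12 libraries shared 1 estimate of the spread.

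The libraries of a group differed in the levels of choroid plexus genes and of striatal genes. The summed level of 5 choroid plexus genes, of which the transthyretin gene Ttr was the most abundant and none was at 0 in all libraries, was 484, 299 and 52.0 CPM in young sham, 52.3, 9.75 and 4039.9 CPM in young ICH, 64.8, 54.1 and 85.3 CPM in aged sham and 1545, 1959 and 40 CPM in aged ICH. Ttr alone reached 3651 CPM in young ICH 3, 1423 CPM in aged ICH 1 and 1810.3 CPM in aged ICH 2, while the other 3 ICH libraries had between 5.26 and 34.0 CPM. These 3 libraries are called the high-Ttr libraries, and the counts of members in both ICH comparisons by the test and by the criterion of the study are also given without them, a choice made after seeing the data that leaves 2 young ICH libraries and 1 aged ICH library, where the lone library is assumed to vary like the other groups. The tissue label was checked with 9 genes of striatal projection neurons, whose summed level was 3024, 1881 and 1774 CPM in young sham, 1235, 513 and 1725 CPM in young ICH, 2338, 2639.8 and 1513 CPM in aged sham and 325, 1912 and 741 CPM in aged ICH. None of the 9 was at 0 in all libraries and the most abundant was Pde10a, a phosphodiesterase of striatal neurons. Young ICH 2 and aged ICH 1 were lowest, and young ICH 3 and aged ICH 2 were within the range of the sham libraries. Fewer cells of a type and less RNA per cell cannot be told apart in bulk tissue, here and for every gene below.

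Single libraries also led or trailed the members as a whole. The summed level of the 40 members was 394, 348 and 543 CPM in young sham, 550.3, 564 and 827 CPM in young ICH, 634, 310.3 and 547 CPM in aged sham and 1414, 886 and 949 CPM in aged ICH. Aged ICH 1 was the highest of its group for 40 of 40 members, against 33.6% of all genes tested, and aged sham 2 was the lowest of its group for 40 of 40, against 35.6%. Young ICH 3 was the highest of its group for 36 members (35.8% of all genes), young sham 3 for 37 (32.8%), and young sham 2 was the lowest for 35 (33.1%). Young ICH 3 and aged ICH 1 also carried high choroid plexus sums, and aged ICH 1 the lowest striatal sum. Aged ICH 2, with the highest choroid plexus sum of aged ICH, was instead the lowest of its group for 33 members (40.1% of all genes). The part of these libraries in the results below was not tested.

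In young ICH vs. young sham, 6 of the 40 members were upregulated and none was downregulated. They were Oas2, an oligoadenylate synthetase, Parp9, a partner of the ubiquitin ligase Dtx3l, Slfn5, a Schlafen protein, Eif2ak2, the double-stranded RNA-dependent kinase PKR, Ifitm3, which blocks viral entry at endosomes, and Ifi35, an interferon-induced leucine zipper protein. These 6 are 15% of the members, against 9.89% of all genes tested. By the criterion of the study 14 members were higher, against 8.66% of all genes, and every young ICH library was above every young sham library for 16 members, against 18.5% of all genes. The median log2FC was 0.63 for the members and 0.02 for all genes tested, and the log2FC was above 0 for 40 of 40 (52.7% of all genes).

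The young count depended on single libraries, those of the aged groups included, and the cause was not tested. It was 1 without young sham 1 (7.35% of all genes upregulated, against 9.89% in the full data), 0 without young sham 2 (4.38%), 2 without young sham 3 (6.27%) and 0 without young ICH 3 (5.84%). It was 1 without aged sham 1 (8.46%), 3 without aged sham 3 (8.68%), 1 without aged ICH 3 (8.48%) and 11 without aged sham 2 (9.25%). With the 3 high-Ttr libraries left out it was 0, where 4.82% of all genes were upregulated. DESeq2 called 10 members in the full data (10.6% of all genes it tested). By the criterion of the study the count of 14 became 8 without young sham 1, 6 without young sham 2, 3 without young ICH 3 and 3 without the high-Ttr libraries. The median log2FC was 0.43 without young ICH 3, 0.43 without the high-Ttr libraries and 0.46 without young sham 2.

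In aged ICH vs. aged sham, 25 of the 40 members were upregulated and none was downregulated, which is 62.5% against 7% of all genes tested. The 25 included all 4 genes of the Parp family with Dtx3l, all 3 membrane effectors and both Slfn genes, but 2 of 4 Ifit, 3 of 7 Oas and 1 of 4 genes of the ISG15 system. The criterion of the study was met by 37 members (7.24% of all genes), all but Uba7, Herc6 and Cmpk2. Every aged ICH library was above every aged sham library for 36 members, against 17.8% of all genes, the exceptions being Ifit2, Uba7, Herc6 and Cmpk2. The median log2FC was 1.24 for the members and 0.00 for all genes tested.

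Leaving out aged ICH 1, the library with the highest level of every member, reduced the aged count from 25 to 1 (Parp9), while the share of all genes upregulated went from 7% to 1.86%. The count was 6 without aged sham 2 (3.24% of all genes), namely Parp9, Parp12, Slfn8, Trim30a, Ifi44 and Ifi35. It was 7 without aged ICH 3 (3.41% of all genes), namely Parp9, Parp12, Slfn8, Ifitm3, Trim30a, Ifi35 and Lgals3bp. It was 12 without aged sham 3 (5.32%) and 16 with only the aged groups in the fit (6.53%). Without the 3 high-Ttr libraries it was 0, with 1.19% of all genes upregulated, and edgeR adjusted *P* values of the 25 genes ran from 0.0573 for Parp12 to 0.294 for Sp100. By the criterion of the study the count of 37 was 24 without the high-Ttr libraries, 28 without aged ICH 1, 33 without aged sham 2 and at least 36 in the other alternatives. The median log2FC moved less, to 0.95 without aged ICH 1, 0.93 without aged sham 2 and 1.06 without the high-Ttr libraries.

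**Figure D1:**
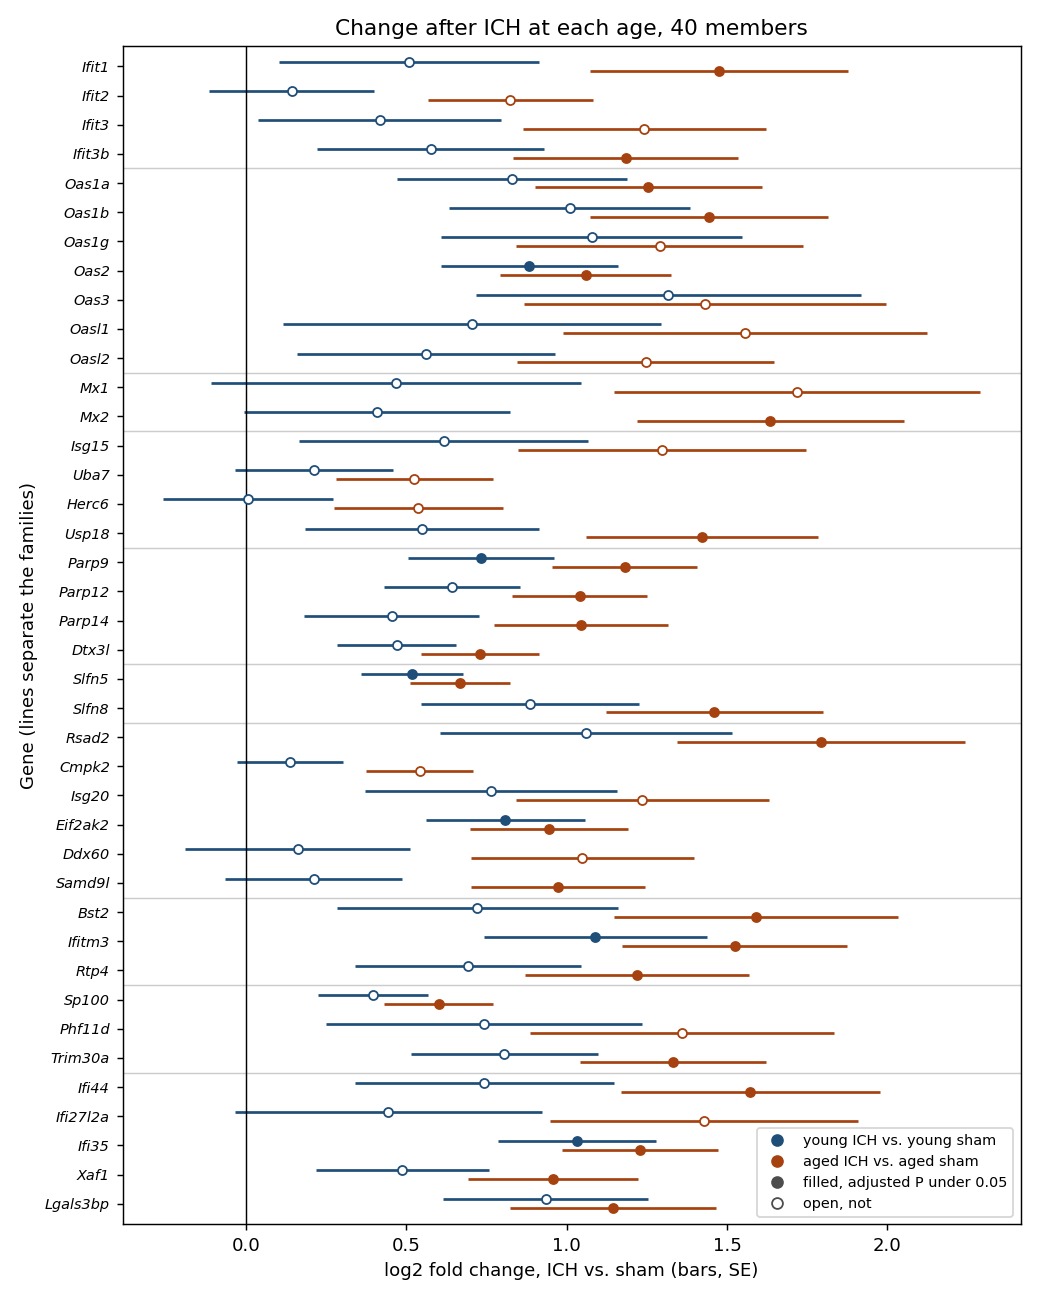
Log2FC (x axis) with its standard error (SE, derived from the test statistic) of the 40 members in young ICH vs. young sham and in aged ICH vs. aged sham, grouped by family. Filled points have an edgeR adjusted *P* under 0.05. Filled points number 6 at the young age and 25 at the aged age, and the aged log2FC is the larger for 40 of 40 members (48.9% of all genes tested).

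The Ifit proteins bind viral and other foreign RNA and hold back its translation. None of the 4 genes was upregulated in young ICH by edgeR, where 0 had an unadjusted *P* under 0.05 and 0 were called by DESeq2, and in aged ICH Ifit1 and Ifit3b were. Ifit3, which had the highest CPM of the 4, was at 21.6, 18.9 and 37.6 CPM in young sham, 32.0, 27.1 and 45.0 CPM in young ICH, 45.7, 17.6 and 32.3 CPM in aged sham and 111, 52.3 and 63.1 CPM in aged ICH. Young ICH overlapped young sham, since young sham 3 was above young ICH 1 and 2, whereas all 3 aged ICH libraries were above all others. The young comparison gave a log2FC of 0.42 (edgeR adjusted *P* = 0.482, SE 0.38) and the aged comparison a log2FC of 1.24 (edgeR adjusted *P* = 0.0510, SE 0.38), and the interaction of age and ICH had an unadjusted *P* of 0.148. For Ifit3 the aged adjusted *P* was 0.0360 by DESeq2 and, by edgeR, 0.0139 with no filter on low counts, 0.0473 with a stricter filter on low counts, 0.0201 with replicate number as a block, 0.0463 without young sham 3, 0.0456 without young ICH 3, 0.0499 without aged sham 1 and 0.0353 without aged ICH 2.

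Ifit2 was at 22.7, 18.2 and 26.5 CPM in young sham, 25.7, 24.4 and 24.3 CPM in young ICH, 33.4, 17.1 and 24.6 CPM in aged sham and 60.3, 30.2 and 42.4 CPM in aged ICH. The young groups overlapped, and aged ICH 2 was below aged sham 1. Its aged log2FC of 0.82 (edgeR adjusted *P* = 0.0549, SE 0.26) missed the threshold, and the adjusted *P* was 0.0101 by DESeq2 and, by edgeR, 0.0203 with no filter on low counts, 0.0496 with a stricter filter on low counts, 0.0195 with replicate number as a block, 0.0429 without aged sham 1 and 0.0195 without aged ICH 2. The young log2FC of 0.14 (edgeR adjusted *P* = 0.738, SE 0.26) was among the 3 with the largest *P* of the members, and the interaction had an unadjusted *P* of 0.0851. Ifit1, which recognizes RNA caps that lack host methylation, had an aged log2FC of 1.48 (edgeR adjusted *P* = 0.0341, SE 0.40) and a young log2FC of 0.51. Its aged edgeR adjusted *P* was 0.0624 with only the compared groups in the fit, 0.0691 without aged sham 2, 0.0759 without aged sham 3, 0.140 without aged ICH 1, 0.0683 without aged ICH 3 and 0.206 without the 3 high-Ttr libraries. Ifit3b, a near copy of Ifit3, had an aged log2FC of 1.18 (edgeR adjusted *P* = 0.0463, SE 0.35) and a young log2FC of 0.58. For Ifit3b the aged edgeR adjusted *P* was 0.0739 with only the compared groups in the fit, 0.0555 without young sham 1, 0.0593 without young sham 2, 0.0593 without young ICH 1, 0.0516 without aged sham 1, 0.149 without aged sham 2, 0.104 without aged sham 3, 0.212 without aged ICH 1, where the log2FC was 0.76, 0.0741 without aged ICH 3 and 0.226 without the 3 high-Ttr libraries.

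**Figure D2:**
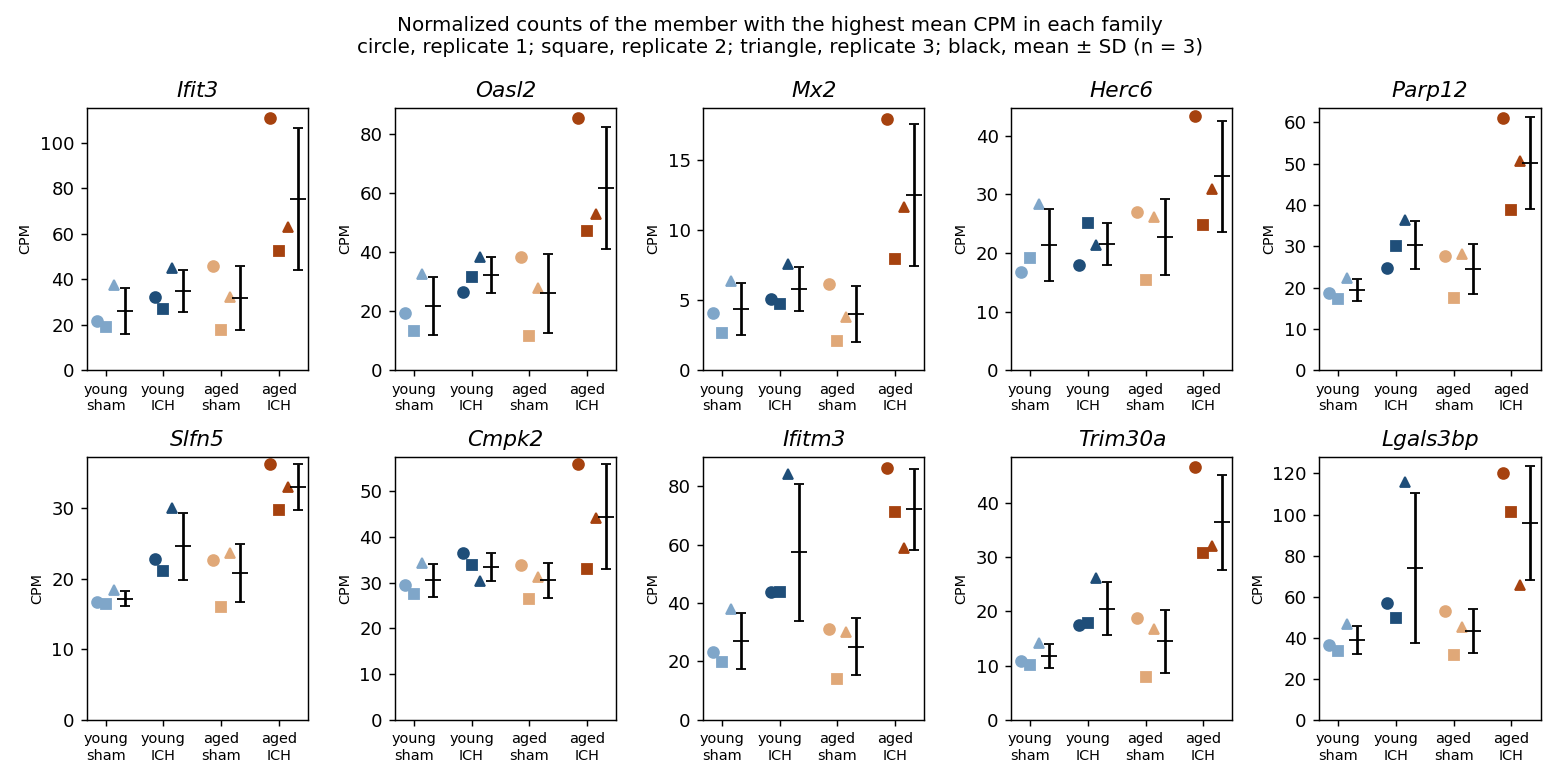
Level in CPM (y axis, starting at 0) of the member with the highest mean CPM, not scaled for length, in each of the 10 families in each library (points), with the mean and SD of each group (n = 3 libraries). Ifit3 reached 111 CPM in aged ICH 1 and Lgals3bp 120.4 CPM, each the highest of the 12 libraries.

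Oligoadenylate synthetases are switched on by double-stranded RNA and make the messenger that activates RNase L, which degrades RNA. Oas2 was upregulated at both ages, and Oas1a and Oas1b in aged ICH. Oas2 was at 3.01, 2.54 and 3.27 CPM in young sham, 3.95, 5.16 and 7.19 CPM in young ICH, 6.39, 3.57 and 6.32 CPM in aged sham and 14.3, 8.90 and 10.7 CPM in aged ICH. All ICH libraries were above all sham libraries of the same age, and all aged sham libraries were above all young sham libraries, the order that gave the only member higher in aged sham by the criterion of the study. The log2FC of Oas2 was 0.88 in young ICH (SE 0.28, edgeR adjusted *P* = 0.0442) and 1.06 in aged ICH (SE 0.27, edgeR adjusted *P* = 0.0246), with an unadjusted interaction *P* of 0.654. For Oas2 the young edgeR adjusted *P* was 0.0536 with only the compared groups in the fit, 0.0910 without young sham 1, 0.1497 without young sham 2, 0.0782 without young sham 3, 0.0635 without young ICH 2, 0.165 without young ICH 3, 0.0542 without aged sham 1, 0.0538 without aged sham 3, 0.0602 without aged ICH 3 and 0.158 without the 3 high-Ttr libraries. The aged one was 0.0514 without aged sham 1, 0.0812 without aged sham 2, 0.114 without aged ICH 1, 0.0604 without aged ICH 3 and 0.118 without the 3 high-Ttr libraries.

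Oasl2, with the highest CPM of the 7 Oas genes, encodes an oligoadenylate synthetase-like protein and was at 19.4, 13.5 and 32.6 CPM in young sham, 26.6, 31.6 and 38.4 CPM in young ICH, 38.4, 11.8 and 27.8 CPM in aged sham and 85.1, 47.0 and 52.9 CPM in aged ICH. Young sham 3 was above young ICH 1 and 2, and the aged groups did not overlap. Oasl2 had a young log2FC of 0.56 (edgeR adjusted *P* = 0.359, SE 0.40) and an aged log2FC of 1.25 (edgeR adjusted *P* = 0.0629, SE 0.40), which both missed the threshold, and the aged adjusted *P* was 0.0404 by DESeq2 and, by edgeR, 0.0199 with no filter on low counts and 0.0334 with replicate number as a block. Oas3, which makes long oligoadenylates, was the lowest of all members per length, at 0.691, 0.571 and 1.35 CPM in young sham, 2.26, 1.76 and 2.46 CPM in young ICH, 2.25, 0.169 and 2.13 CPM in aged sham and 5.19, 3.52 and 3.61 CPM in aged ICH. In Oas3, ICH and sham did not overlap at either age, with aged sham 2 far below the other aged sham libraries. Its log2FC was 1.32 in young ICH (SE 0.60) and 1.43 in aged ICH (SE 0.56, edgeR adjusted *P* = 0.118), and the latter was among the 3 largest *P* of the members. For Oas3 the young adjusted *P* was 0.1496 by edgeR in the full data and, by edgeR, 0.0454 with only the compared groups in the fit and 0.0147 without aged sham 2.

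The other Oas genes were low. Oas1a was between 1.85 CPM in aged sham 2 and 11.7 CPM in aged ICH 1, and its aged log2FC of 1.26 (edgeR adjusted *P* = 0.0391, SE 0.36) was above its young log2FC of 0.83 (edgeR adjusted *P* = 0.128). For Oas1a the aged edgeR adjusted *P* was 0.0623 with only the compared groups in the fit, 0.0520 without young sham 2, 0.0507 without young ICH 1, 0.0602 without aged sham 1, 0.114 without aged sham 2, 0.0639 without aged sham 3, 0.172 without aged ICH 1, 0.0753 without aged ICH 3 and 0.194 without the 3 high-Ttr libraries. Oas1b, known as the flavivirus resistance gene and annotated as a polymorphic pseudogene, had an aged log2FC of 1.44 (edgeR adjusted *P* = 0.0268, SE 0.37) and a young log2FC of 1.01 (edgeR adjusted *P* = 0.0817). Its aged edgeR adjusted *P* was 0.0858 without aged sham 2, 0.0742 without aged sham 3, 0.115 without aged ICH 1, 0.0613 without aged ICH 3 and 0.155 without the 3 high-Ttr libraries, and its young one 0.0330 by DESeq2. Oas1g and Oasl1 had an aged log2FC of 1.29 and 1.56, with an edgeR adjusted *P* of 0.0803 and 0.0935. For Oas1g the aged adjusted *P* was 0.0364 by DESeq2 and, by edgeR, 0.0236 with replicate number as a block, and the young one by edgeR, 0.0452 without aged sham 2. For Oasl1 the aged adjusted *P* was 0.0317 by DESeq2 and, by edgeR, 0.0481 with no filter on low counts and 0.0393 with replicate number as a block. The family's aged count of 3 was 0 without aged ICH 1, aged ICH 3, aged sham 2 or the high-Ttr libraries and 1 without aged sham 1 or 3, and was 6 by DESeq2.

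The Mx proteins are dynamin-like GTPases that trap viral nucleocapsids. Neither gene was upregulated in young ICH by edgeR (0 of 2 at an unadjusted *P* under 0.05, 0 by DESeq2), and Mx2 was in aged ICH. Mx2, a polymorphic pseudogene in the annotation, was at 4.09, 2.66 and 6.37 CPM in young sham, 5.08, 4.73 and 7.59 CPM in young ICH, 6.12, 2.12 and 3.83 CPM in aged sham and 17.9, 7.96 and 11.6 CPM in aged ICH. Young sham 3 was above young ICH 1 and 2, and each aged ICH library was above each library of the other 3 groups. The young log2FC of 0.41 (edgeR adjusted *P* = 0.532, SE 0.41) and the aged log2FC of 1.64 (edgeR adjusted *P* = 0.0258, SE 0.42) gave the smallest interaction *P* of the 40 members, 0.0576 unadjusted (edgeR adjusted *P* = 0.9999). For Mx2 the aged edgeR adjusted *P* was 0.0855 without aged sham 2, 0.0701 without aged sham 3, 0.117 without aged ICH 1, 0.0609 without aged ICH 3 and 0.131 without the 3 high-Ttr libraries. Mx1 was between 0.674 CPM in aged sham 2 and 16.9 CPM in aged ICH 1, with an aged log2FC of 1.72 (edgeR adjusted *P* = 0.0690, SE 0.57) and a young log2FC of 0.47. For Mx1 the aged adjusted *P* was by edgeR, 0.0244 with no filter on low counts and 0.0365 with replicate number as a block.

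ISG15 is a ubiquitin-like protein that is attached to other proteins by the activating enzyme Uba7 and, in mice, the ligase Herc6, and removed by the protease Usp18. None of the 4 genes was upregulated in young ICH by edgeR (0 at an unadjusted *P* under 0.05, 0 by DESeq2), and only Usp18 was in aged ICH. Herc6, which had the highest CPM of the 4 but was below Isg15 per length in each group, was at 16.7, 19.2 and 28.3 CPM in young sham, 17.9, 25.2 and 21.4 CPM in young ICH, 26.9, 15.3 and 26.1 CPM in aged sham and 43.4, 24.7 and 31.0 CPM in aged ICH. In Herc6, ICH and sham overlapped at both ages, and aged ICH 1 and 3 were the 2 highest libraries. Herc6 had a young log2FC of 0.01 (edgeR adjusted *P* = 0.989, SE 0.26) and an aged log2FC of 0.54 (edgeR adjusted *P* = 0.202, SE 0.26), the largest *P* of the 40 members in both comparisons. It turned negative in young ICH in 5 alternatives, to -0.145 without young sham 1, -0.0662 without young sham 2, -0.117 without young ICH 2, -0.00534 by DESeq2 and -0.00344 by relative log expression. Uba7 was at 8.18, 5.65 and 8.18 CPM in young sham, 6.76, 7.76 and 11 CPM in young ICH, 10.2, 6.61 and 9.16 CPM in aged sham and 16.3, 10.9 and 10.1 CPM in aged ICH. The young groups overlapped, and aged ICH 3 was below aged sham 1. Its log2FC was 0.21 in young ICH and 0.52 in aged ICH, with an edgeR adjusted *P* of 0.591 and 0.181; the young log2FC was -0.0167 without young ICH 3 and -0.0177 without the high-Ttr libraries.

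Isg15 itself was between 3.41 CPM in aged sham 2 and 28.4 CPM in aged ICH 1. It had a young log2FC of 0.62 and an aged log2FC of 1.30 (edgeR adjusted *P* = 0.0788, SE 0.45). For Isg15 the aged adjusted *P* was by edgeR, 0.0319 with no filter on low counts, 0.0444 with replicate number as a block and 0.0431 without aged sham 1. Usp18, which also binds Ifnar2 and dampens interferon signaling, had a young log2FC of 0.55 and an aged log2FC of 1.42 (edgeR adjusted *P* = 0.0261, SE 0.36). For Usp18 the aged edgeR adjusted *P* was 0.0893 without aged sham 2, 0.0584 without aged sham 3, 0.122 without aged ICH 1, 0.0513 without aged ICH 3 and 0.149 without the 3 high-Ttr libraries.

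Parp proteins attach ADP-ribose to other proteins, and Parp9 forms a complex with Dtx3l. All 4 genes of this family were upregulated in aged ICH and Parp9 also in young ICH. Parp9 was at 9.20, 8.47 and 11.2 CPM in young sham, 14.4, 14.3 and 19.3 CPM in young ICH, 12.2, 7.32 and 11.9 CPM in aged sham and 31.0, 19.2 and 21.2 CPM in aged ICH. In Parp9, ICH and sham did not overlap at either age, and young ICH 3 lay within the range of aged ICH. The log2FC was 0.73 in young ICH (SE 0.23, edgeR adjusted *P* = 0.0430) and 1.18 in aged ICH (SE 0.23, edgeR adjusted *P* = 0.00945), with an unadjusted interaction *P* of 0.187. For Parp9 the young edgeR adjusted *P* was 0.105 without young sham 1, 0.149 without young sham 2, 0.0555 without young sham 3, 0.0597 without young ICH 1, 0.145 without young ICH 3, 0.0519 without aged sham 1, 0.0524 without aged sham 3, 0.0551 without aged ICH 3 and 0.116 without the 3 high-Ttr libraries. The aged call of Parp9 was the only one of the 25 that held with each of the 12 libraries left out in turn, and it was lost without the 3 high-Ttr libraries (edgeR adjusted *P* = 0.0723).

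Parp12, a mono-ADP-ribosyltransferase, had the highest CPM of the family, at 18.7, 17.4 and 22.4 CPM in young sham, 24.8, 30.1 and 36.4 CPM in young ICH, 27.8, 17.4 and 28.1 CPM in aged sham and 61.2, 38.9 and 50.7 CPM in aged ICH. In Parp12, ICH and sham did not overlap at either age, and all aged ICH libraries were above all young ICH libraries. The young log2FC of 0.64 (edgeR adjusted *P* = 0.0541, SE 0.21) missed the threshold, and its aged log2FC of 1.04 (edgeR adjusted *P* = 0.0110, SE 0.21) passed. The aged edgeR adjusted *P* was 0.0550 without aged ICH 1 and 0.0573 without the 3 high-Ttr libraries. For Parp12 the young adjusted *P* was 0.0185 by DESeq2 and, by edgeR, 0.0252 with no filter on low counts, 0.0491 with a stricter filter on low counts, 0.0385 with only the compared groups in the fit, 0.0306 with replicate number as a block, 0.0441 without young ICH 1, 0.0294 without aged sham 2 and 0.0415 without aged ICH 2. Parp14, another mono-ADP-ribosyltransferase, had a young log2FC of 0.45 and an aged log2FC of 1.04 (edgeR adjusted *P* = 0.0276, SE 0.27). For Parp14 the aged edgeR adjusted *P* was 0.0504 with only the compared groups in the fit, 0.0664 without aged sham 1, 0.0731 without aged sham 2, 0.123 without aged ICH 1, 0.0549 without aged ICH 3 and 0.215 without the 3 high-Ttr libraries. Dtx3l had a young log2FC of 0.47 (edgeR adjusted *P* = 0.0996, and by edgeR, 0.0455 with only the compared groups in the fit) and an aged log2FC of 0.73 (edgeR adjusted *P* = 0.0250, SE 0.18). For Dtx3l the aged edgeR adjusted *P* was 0.0590 with only the compared groups in the fit, 0.0886 without aged sham 2, 0.0612 without aged sham 3, 0.115 without aged ICH 1, 0.0529 without aged ICH 3 and 0.162 without the 3 high-Ttr libraries.

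Schlafen proteins bind nucleic acids and restrain proliferation and viral translation. Both Slfn genes were upregulated in aged ICH, and Slfn5 at both ages. Slfn5 was at 16.7, 16.4 and 18.4 CPM in young sham, 22.8, 21.1 and 30.0 CPM in young ICH, 22.7, 16.0 and 23.7 CPM in aged sham and 36.3, 29.8 and 33.1 CPM in aged ICH. In Slfn5, ICH and sham did not overlap at either age, while young ICH 3 was within the range of aged ICH. The log2FC was 0.52 in young ICH (SE 0.16, edgeR adjusted *P* = 0.0406) and 0.67 in aged ICH (SE 0.16, edgeR adjusted *P* = 0.0195), with an unadjusted interaction *P* of 0.512. For Slfn5 the young edgeR adjusted *P* was 0.0524 with only the compared groups in the fit, 0.0977 without young sham 1, 0.131 without young sham 2, 0.0690 without young sham 3, 0.0557 without young ICH 1, 0.151 without young ICH 3, 0.0522 without aged sham 1, 0.0564 without aged ICH 3 and 0.176 without the 3 high-Ttr libraries. The aged one was 0.0595 without aged sham 2, 0.0865 without aged ICH 1, 0.0570 without aged ICH 3 and 0.0937 without the 3 high-Ttr libraries. Slfn8 was between 2.83 CPM in aged sham 2 and 21.5 CPM in aged ICH 1, with a young log2FC of 0.89 (edgeR adjusted *P* = 0.0906) and an aged log2FC of 1.46 (edgeR adjusted *P* = 0.0184, SE 0.34). For Slfn8 the aged edgeR adjusted *P* was 0.0810 without aged ICH 1 and 0.127 without the 3 high-Ttr libraries, and the young one 0.0367 by DESeq2 and, by edgeR, 0.0448 with only the compared groups in the fit and 0.0170 without aged sham 2.

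The nucleotide and RNA effectors act on nucleotides, RNA or translation. Eif2ak2 was upregulated at both ages, and Rsad2 and Samd9l in aged ICH. Eif2ak2, whose product halts translation by phosphorylating eIF2 alpha, was at 15.3, 18.2 and 21.8 CPM in young sham, 26.1, 30.7 and 39.99 CPM in young ICH, 24.7, 14.3 and 26.5 CPM in aged sham and 54.2, 34.0 and 38.1 CPM in aged ICH. In Eif2ak2, ICH and sham did not overlap at either age, and young ICH 3 was above aged ICH 2 and 3. The log2FC was 0.81 in young ICH (SE 0.25, edgeR adjusted *P* = 0.0415) and 0.95 in aged ICH (SE 0.25, edgeR adjusted *P* = 0.0286), with an unadjusted interaction *P* of 0.701. For Eif2ak2 the young edgeR adjusted *P* was 0.123 without young sham 1, 0.119 without young sham 2, 0.0536 without young sham 3, 0.0592 without young ICH 2, 0.142 without young ICH 3, 0.0535 without aged sham 1, 0.0544 without aged ICH 3 and 0.130 without the 3 high-Ttr libraries. The aged one was 0.0515 with only the compared groups in the fit, 0.0616 without aged sham 1, 0.0856 without aged sham 2, 0.129 without aged ICH 1, 0.0587 without aged ICH 3 and 0.165 without the 3 high-Ttr libraries.

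Samd9l, a growth-restraining antiviral protein, was at 9.31, 11.6 and 10.9 CPM in young sham, 9.63, 12.5 and 14.7 CPM in young ICH, 15.5, 7.52 and 16.1 CPM in aged sham and 33.8, 21.0 and 21.8 CPM in aged ICH. The young groups overlapped and the aged groups did not. Its young log2FC of 0.21 (edgeR adjusted *P* = 0.636, SE 0.28) and aged log2FC of 0.97 (edgeR adjusted *P* = 0.0376, SE 0.27) gave an unadjusted interaction *P* of 0.0727. For Samd9l the aged edgeR adjusted *P* was 0.0751 with only the compared groups in the fit, 0.0520 without young sham 2, 0.0527 without young sham 3, 0.0650 without aged sham 1, 0.0888 without aged sham 2, 0.167 without aged ICH 1, 0.0628 without aged ICH 3 and 0.258 without the 3 high-Ttr libraries. Ddx60, a helicase that promotes RNA sensing, was at 3.29, 3.05 and 6.53 CPM in young sham, 3.40, 4.83 and 6.15 CPM in young ICH, 4.998, 3.07 and 6.14 CPM in aged sham and 13.2, 7.68 and 8.58 CPM in aged ICH. Young sham 3 was the highest young library, and all aged ICH libraries were above all others. Its log2FC was 0.16 in young ICH and 1.05 in aged ICH (SE 0.35, edgeR adjusted *P* = 0.0681), with an unadjusted interaction *P* of 0.0977. For Ddx60 the aged adjusted *P* was 0.0163 by DESeq2 and, by edgeR, 0.0327 with no filter on low counts, 0.0429 with replicate number as a block and 0.0444 without young sham 3. For Ddx60 the young log2FC was -0.000843 without young sham 1, -0.0339 without young sham 2, -0.0595 without young ICH 3 and -0.0621 without the high-Ttr libraries.

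Cmpk2, a mitochondrial nucleotide kinase, had the highest CPM of the 6, at 29.5, 27.5 and 34.3 CPM in young sham, 36.4, 33.8 and 30.3 CPM in young ICH, 33.9, 26.4 and 31.1 CPM in aged sham and 56.0, 33.0 and 44.1 CPM in aged ICH. In Cmpk2, ICH and sham overlapped at both ages, and aged ICH 2 was below aged sham 1. The young log2FC of 0.14 (edgeR adjusted *P* = 0.608, SE 0.17) and the aged log2FC of 0.54 (edgeR adjusted *P* = 0.0528, SE 0.17) missed the threshold. For Cmpk2 the aged adjusted *P* was 0.0165 by DESeq2 and, by edgeR, 0.0273 with no filter on low counts, 0.0469 with a stricter filter on low counts, 0.0360 with replicate number as a block and 0.00978 without aged ICH 2. The interaction had an unadjusted *P* of 0.113. Rsad2, or viperin, which makes a chain-terminating nucleotide, lies next to Cmpk2 in the genome and had the largest aged log2FC of the 40 members, 1.79 (SE 0.45, edgeR adjusted *P* = 0.0242), from 14.0, 3.91 and 13.3 CPM in aged sham to 45.9, 24.0 and 38.4 CPM in aged ICH. Rsad2 had a young log2FC of 1.06 (edgeR adjusted *P* = 0.127, SE 0.46), which passed with replicate number as a block (edgeR adjusted *P* = 0.0336). For Rsad2 the aged edgeR adjusted *P* was 0.0541 without aged sham 2, 0.0986 without aged ICH 1, 0.0683 without aged ICH 3 and 0.112 without the 3 high-Ttr libraries. The exonuclease gene Isg20 had a log2FC of 0.76 in young ICH and 1.24 in aged ICH (edgeR adjusted *P* = 0.0605). For Isg20 the aged adjusted *P* was 0.0177 by DESeq2 and, by edgeR, 0.0372 with no filter on low counts and 0.0363 with replicate number as a block.

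Among the membrane effectors, all 3 genes were upregulated in aged ICH and Ifitm3 in young ICH. Ifitm3 was at 23.3, 19.8 and 37.8 CPM in young sham, 43.9, 43.8 and 84.3 CPM in young ICH, 31.2, 13.9 and 30.1 CPM in aged sham and 86.4, 71.2 and 58.7 CPM in aged ICH. In Ifitm3, ICH and sham did not overlap at either age. The 3 high-Ttr libraries were the highest, with young ICH 3 close to aged ICH 1. The log2FC was 1.09 in young ICH (SE 0.35, edgeR adjusted *P* = 0.0476) and 1.52 in aged ICH (SE 0.35, edgeR adjusted *P* = 0.0179), with an unadjusted interaction *P* of 0.390. For Ifitm3 the young edgeR adjusted *P* was 0.0668 with only the compared groups in the fit, 0.126 without young sham 1, 0.171 without young sham 2, 0.187 without young ICH 3, where the log2FC was 0.70, 0.0573 without aged sham 1, 0.0589 without aged sham 3, 0.0570 without aged ICH 1, 0.0578 without aged ICH 2, 0.0586 without aged ICH 3 and 0.216 without the 3 high-Ttr libraries, where the log2FC was 0.70. The aged one was 0.0542 without aged sham 2, 0.0758 without aged ICH 1 and 0.137 without the 3 high-Ttr libraries. Bst2, or tetherin, which holds budding virus at the cell surface, had a young log2FC of 0.72 and an aged log2FC of 1.59 (edgeR adjusted *P* = 0.0372, SE 0.44). For Bst2 the aged edgeR adjusted *P* was 0.115 without aged sham 2, 0.0846 without aged sham 3, 0.135 without aged ICH 1, 0.0606 without aged ICH 2, 0.0534 without aged ICH 3 and 0.260 without the 3 high-Ttr libraries. Rtp4, a receptor transporter protein, had a young log2FC of 0.69 and an aged log2FC of 1.22 (edgeR adjusted *P* = 0.0413, SE 0.35). For Rtp4 the aged edgeR adjusted *P* was 0.0619 with only the compared groups in the fit, 0.0508 without young sham 1, 0.0529 without young sham 2, 0.110 without aged sham 2, 0.0786 without aged sham 3, 0.171 without aged ICH 1, 0.0790 without aged ICH 3 and 0.214 without the 3 high-Ttr libraries.

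Among the nuclear and tripartite-motif effectors, none of 3 was upregulated in young ICH by edgeR (2 at an unadjusted *P* under 0.05, 1 by DESeq2), and Trim30a and Sp100 were in aged ICH. Trim30a, a tripartite-motif protein that restrains inflammatory signaling, was at 10.8, 10.2 and 14.3 CPM in young sham, 17.5, 17.8 and 26.2 CPM in young ICH, 18.8, 7.86 and 16.8 CPM in aged sham and 46.6, 30.8 and 32.0 CPM in aged ICH. In Trim30a, ICH and sham did not overlap at either age, and all aged ICH libraries were above all young ICH libraries. The young log2FC of 0.81 (edgeR adjusted *P* = 0.0753, SE 0.29) missed the threshold and the aged log2FC of 1.33 (edgeR adjusted *P* = 0.0145, SE 0.29) passed. For Trim30a the aged edgeR adjusted *P* was 0.0700 without aged ICH 1 and 0.126 without the 3 high-Ttr libraries, and the young one 0.0263 by DESeq2 and, by edgeR, 0.0377 with no filter on low counts, 0.0389 with only the compared groups in the fit, 0.0488 with replicate number as a block and 0.0221 without aged sham 2. Sp100, a nuclear body protein, had a young log2FC of 0.40 (edgeR adjusted *P* = 0.127, and by edgeR, 0.0377 without young ICH 2) and an aged log2FC of 0.60 (edgeR adjusted *P* = 0.0386, SE 0.17). For Sp100 the aged edgeR adjusted *P* was 0.0539 without young sham 2, 0.0764 without aged sham 1, 0.135 without aged sham 2, 0.0662 without aged sham 3, 0.171 without aged ICH 1, 0.0633 without aged ICH 3 and 0.294 without the 3 high-Ttr libraries. Phf11d, a PHD finger protein gene, had a log2FC of 0.74 in young ICH and 1.36 in aged ICH (edgeR adjusted *P* = 0.0810). For Phf11d the aged adjusted *P* was 0.0208 by DESeq2 and, by edgeR, 0.0392 with no filter on low counts and 0.0308 with replicate number as a block.

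Of the 5 other effectors, Ifi35 was upregulated at both ages and Ifi44, Xaf1 and Lgals3bp in aged ICH. Ifi35 had the smallest *P* of the members in young ICH and was at 2.79, 2.63 and 3.17 CPM in young sham, 4.47, 5.26 and 7.85 CPM in young ICH, 4.27, 2.39 and 3.89 CPM in aged sham and 9.73, 7.52 and 7.51 CPM in aged ICH. In Ifi35, ICH and sham did not overlap at either age, and young ICH 3 was within the range of aged ICH. The log2FC was 1.03 in young ICH (SE 0.25, edgeR adjusted *P* = 0.0146) and 1.23 in aged ICH (SE 0.24, edgeR adjusted *P* = 0.0102), with an unadjusted interaction *P* of 0.578. For Ifi35 the young edgeR adjusted *P* was 0.0644 without young sham 2, 0.0563 without young ICH 3 and 0.0736 without the 3 high-Ttr libraries, and the aged one 0.0524 without aged ICH 1 and 0.0781 without the 3 high-Ttr libraries.

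Lgals3bp, a secreted glycoprotein that binds galectin-3, had the highest CPM of these 5, at 36.5, 33.4 and 46.4 CPM in young sham, 56.9, 49.4 and 116 CPM in young ICH, 52.8, 31.6 and 45.3 CPM in aged sham and 120.4, 101 and 65.6 CPM in aged ICH. In Lgals3bp, ICH and sham did not overlap at either age, and young ICH 3 and aged ICH 1 and 2, the high-Ttr libraries, were the 3 highest. These 3 were also the highest for Ifitm3, Bst2 and Ifi27l2a, by small margins for Ifi35 and Uba7, and for no other member. Bst2 was at 30.0 CPM in young ICH 3, 38.3 CPM in aged ICH 1 and 31.6 CPM in aged ICH 2, against 21.3 CPM in aged ICH 3. The cause of this order was not tested. The young log2FC of Lgals3bp, 0.93 (edgeR adjusted *P* = 0.0621, SE 0.32), missed the threshold and its aged log2FC of 1.15 (edgeR adjusted *P* = 0.0378, SE 0.32) passed it. For Lgals3bp the young adjusted *P* was by edgeR, 0.0230 with no filter on low counts and 0.0293 without young ICH 2. For Lgals3bp the aged edgeR adjusted *P* was 0.0507 without young sham 2, 0.0654 without aged sham 1, 0.131 without aged sham 2, 0.0793 without aged sham 3, 0.149 without aged ICH 1, 0.0664 without aged ICH 2 and 0.215 without the 3 high-Ttr libraries, where the log2FC was 0.61. Ifi44, an interferon-induced GTP-binding-like protein, had a young log2FC of 0.74 and an aged log2FC of 1.57 (edgeR adjusted *P* = 0.0268, SE 0.40). For Ifi44 the aged edgeR adjusted *P* was 0.0652 with only the compared groups in the fit, 0.0633 without aged sham 3, 0.117 without aged ICH 1, 0.0532 without aged ICH 3 and 0.211 without the 3 high-Ttr libraries. Xaf1, which binds the apoptosis inhibitor XIAP, had a young log2FC of 0.49 and an aged log2FC of 0.96 (edgeR adjusted *P* = 0.0367, SE 0.27). For Xaf1 the aged edgeR adjusted *P* was 0.0542 without aged sham 1, 0.128 without aged sham 2, 0.0787 without aged sham 3, 0.163 without aged ICH 1, 0.0778 without aged ICH 3 and 0.169 without the 3 high-Ttr libraries. Ifi27l2a, a small membrane protein gene, had a log2FC of 0.44 in young ICH, which was -0.0200 without young ICH 3 and -0.0225 without the high-Ttr libraries, and of 1.43 in aged ICH (edgeR adjusted *P* = 0.0724). For Ifi27l2a the aged adjusted *P* was by edgeR, 0.0297 with no filter on low counts, 0.0479 with replicate number as a block and 0.0498 without young ICH 3.

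Across the families, the members upregulated at both ages were Oas2, Parp9, Slfn5, Eif2ak2, Ifitm3 and Ifi35, 1 gene in each of 6 families. Another 19 were upregulated in aged ICH alone, none in young ICH alone (all 10 young calls of DESeq2 were also among its 34 aged calls, where 9.34% of all genes it tested were called, and edgeR called 0 in young ICH alone at an unadjusted *P* under 0.05), and 15 at neither age. The 15 were Ifit2, Ifit3, Oas1g, Oas3, Oasl1, Oasl2, Mx1, Isg15, Uba7, Herc6, Cmpk2, Isg20, Ddx60, Phf11d and Ifi27l2a. By the criterion of the study, 14 members were higher at both ages, 5 of them Oas genes (Oas1a, Oas1b, Oas1g, Oas2 and Oas3), and 23 in aged ICH alone, among them all 4 Ifit and both Mx genes. A gene upregulated at 1 age and not at the other is not shown to differ between ages, and the interaction of age and ICH was therefore tested for each member. The aged log2FC was the larger for 40 of 40 members (48.9% of all genes tested), with a median interaction log2FC of 0.53 (-0.01 for all genes tested). Aged ICH 1 was the highest of its group for 40 members and aged sham 2 the lowest for 40, so these signs are not separate observations. No member passed by edgeR: 0 had an adjusted *P* under 0.05 (0% of all genes tested) and 0 an unadjusted *P* under 0.05 (0.907% of all genes tested), while DESeq2 called 0 after adjustment and 2 before it, Samd9l and Mx2. The median interaction log2FC was 0.27 without aged sham 2, 0.28 without aged ICH 1 and 0.28 without young sham 3.

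Aging alone was compared in the sham groups. None of the 40 members was upregulated in aged sham vs. young sham by edgeR (0.0884% of all genes tested) or by DESeq2, and 1, Oas2, was higher at an unadjusted *P* under 0.05 (1409 of 21495 genes tested) with a log2FC of 0.89 (edgeR adjusted *P* = 0.248, SE 0.28). Oas2 was also the 1 member that met the criterion of the study (2.82% of all genes) and the 1 whose aged sham libraries were all above the young sham libraries (9.81% of all genes). The log2FC was above 0 for 35 of the 40 members, against 51.7% of all genes tested. The median log2FC of the members was 0.27, against 0.01 for all genes tested. It was 0.01 without aged sham 1, 0.10 without young sham 2, 0.17 without aged sham 3, 0.42 without young sham 3 and 0.51 without aged sham 2, so that the value depended on which sham library was left out.

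The ICH groups of both ages were also compared directly. None of the 40 members was upregulated in aged ICH vs. young ICH by edgeR (0.0372% of all genes tested), 28 were higher at an unadjusted *P* under 0.05 (1005 of 21495 genes tested) and DESeq2 called 2, Oas2 and Samd9l (0.389% of all genes it tested). The smallest *P* belonged to Oas2, with a log2FC of 1.06 (edgeR adjusted *P* = 0.228, SE 0.27), and Samd9l, with a log2FC of 1.06 (edgeR adjusted *P* = 0.241, SE 0.27). The criterion of the study was met by 22 members (2.21% of all genes), and every aged ICH library was above every young ICH library for 24 (6.9% of all genes). Mx1 had the largest difference, with a log2FC of 1.53 (edgeR adjusted *P* = 0.435, SE 0.57), and Ifitm3 the smallest, with a log2FC of 0.33 (edgeR adjusted *P* = 0.801, SE 0.34). The median log2FC was 0.85 for the members and -0.00 for all genes tested, and 0.58 without aged ICH 1. The count of 22 became 6 without aged ICH 1, 11 without young ICH 1, 13 without young ICH 2 and 12 without the high-Ttr libraries. This comparison shares its aged ICH libraries with aged ICH vs. aged sham and its young ICH libraries with young ICH vs. young sham, so the counts are not independent of those above.

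**Figure D3:**
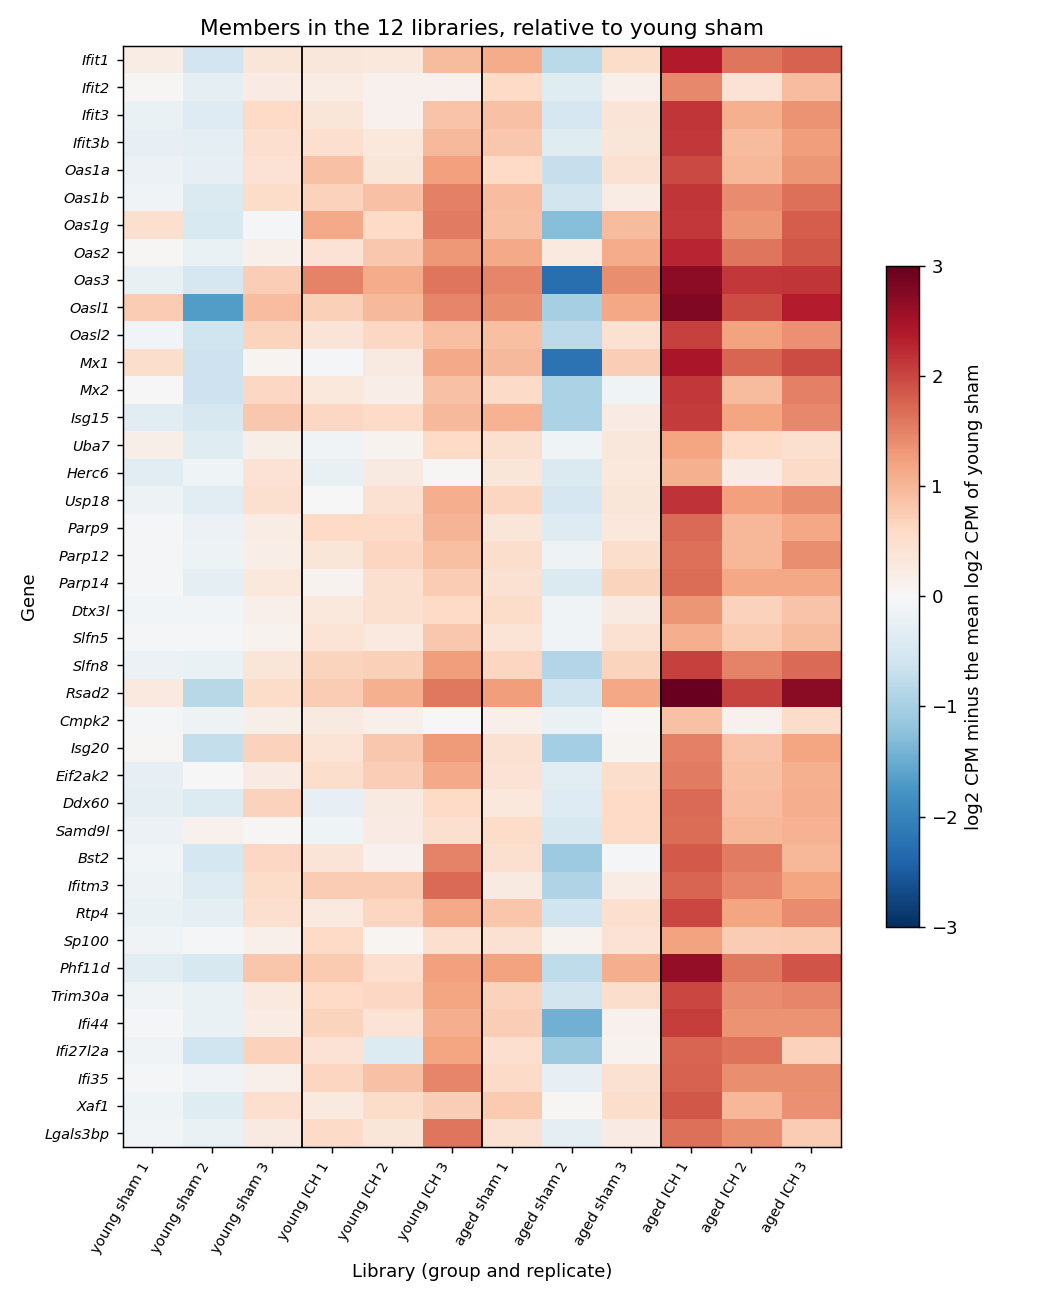
Log2 CPM (color) of the 40 members in each of the 12 libraries, relative to the mean of young sham, with genes grouped by family. Aged ICH 1 holds the highest value of its group in 40 of 40 members and aged sham 2 the lowest of its group in 40 of 40.

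Levels of different members were compared per length, as the length-scaled FPKM of the deposited table. Ifitm3 was the highest in each group, at 38.1 ± 13.7 in young sham, 86.5 ± 36.5 in young ICH, 36.5 ± 14.1 in aged sham and 110.1 ± 21.3 in aged ICH FPKM (mean ± SD, n = 3). By the mean over all 12 libraries Ifit3 followed, at 14.3 ± 5.61 in young sham, 20.3 ± 5.72 in young ICH, 18.0 ± 7.86 in aged sham and 44.7 ± 18.4 in aged ICH FPKM (mean ± SD, n = 3), and Lgals3bp at 13.05 ± 2.36 in young sham, 26.6 ± 13.5 in young ICH, 15.0 ± 3.70 in aged sham and 34.8 ± 10.1 in aged ICH FPKM (mean ± SD, n = 3). In each group Ifitm3 lay more than 1 SD above these, while Ifit3 and Lgals3bp differed by less than the larger of their SDs. By the same mean Bst2 and Isg15 came next, although Bst2 was above Ifit3 in young ICH and above Lgals3bp in aged ICH. Oas3 was the lowest in each group, at 0.118 ± 0.0577 in young sham, 0.312 ± 0.0556 in young ICH, 0.212 ± 0.163 in aged sham and 0.602 ± 0.137 in aged ICH FPKM (mean ± SD, n = 3), with Oas1g the next. Ifit3, second by the mean over all libraries, missed the threshold in aged ICH (edgeR adjusted *P* = 0.0510), while Ifitm3, the first, passed it.

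Several members lie side by side in the genome (build GRCm38.p6). The 4 Ifit genes stand on the plus strand within chr19:34550694-34650009, with 7111 bases between Ifit2 and Ifit3 and 19238 between Ifit3 and Ifit3b. Oas2, Oas3, Oas1b, Oas1g and Oas1a stand within chr5:120730333-120907521, and Oasl2 and Oasl1 at chr5:114896936-114937915. Parp14, Dtx3l and Parp9 lie within chr16:35832874-35972605 and Mx1 and Mx2 within chr16:97447035-97560900. Slfn5 and Slfn8 are 37317 bases apart on chromosome 11, and Rsad2 and Cmpk2 12751 bases apart on opposite strands of chromosome 12. Dtx3l and Parp9 overlap at their ends on opposite strands, and how strand entered the counting was not analysed here, so that reads from the shared stretch may not be assigned to the right one of them. In aged ICH, neighbors were called alike in some places (Parp14, Dtx3l and Parp9 all upregulated, Slfn5 and Slfn8 both upregulated, Oasl1 and Oasl2 neither) and not in others. Rsad2 was upregulated and Cmpk2 was not, Mx2 was and Mx1 was not, Oas1a, Oas1b and Oas2 were and Oas1g and Oas3 were not, and Ifit1 and Ifit3b were while Ifit2 and Ifit3 were not. These differences in calls were not themselves tested.

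Some members share sequence with a close copy, which makes their single values uncertain. Of all 100-base stretches of the transcripts, 31.7% of Ifit3 and 27.4% of Ifit3b occur in the other gene, as do 40.9% of Oas1a and 31.2% of Oas1g. Herc6 shared 10.3% and Rtp4 9.28% with predicted genes, and every other member at most 4.41%. The calls of Ifit3b and Oas1a beside the missed thresholds of Ifit3 and Oas1g concern pairs whose reads are in part shared.

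Promoter windows from RefSeq (GRCm38.p6, 250 bases before to 50 after each transcript start) were found for 31 of the 40 members, and not for Oas1b, Oas2, Mx1, Mx2, Usp18, Parp9, Parp14, Rtp4 and Ifi27l2a. An ISRE core, searched as GAAANNGAAA on both strands, was present in a window of 15 of the 31 members (48.39%), against 3.993% of 27025 genes with windows of the same length. A GAS element, searched as TTCNNNGAA on both strands, was present in 7 (22.58%), against 9.554%. Of the 15 members with the ISRE core, 10 were upregulated in aged ICH (median log2FC 1.30) and 3 in young ICH (median log2FC 0.81). Of the 16 with a window but no such core, 8 were upregulated in aged ICH (median log2FC 1.01) and 1, Ifi35, in young ICH (median log2FC 0.53). Of the 9 without a window, 7 were upregulated in aged ICH (median log2FC 1.42) and 2, Oas2 and Parp9, in young ICH (median log2FC 0.55). A match is a description of the letters in these windows and says nothing of binding.

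The stretches of 30 bases around these cores are shown because the core recurs in members of different families, both called (as Rsad2) and not called (as Isg15). Each is written 5′ to 3′ on the strand of its gene, with the core in capitals (its reverse complement where the core is on the other strand), and 1 site is given for each of 12 genes, with those of Oas3, Slfn5 and Bst2 not printed. Ifit3 and Ifit3b carry the same 30 bases, and so do Oas1a and Oas1g, the pairs with shared transcript sequence. The sites lie at chr19:34640794-34640823 (Ifit1), chr19:34583397-34583426 (Ifit3), chr19:34607793-34607822 (Ifit3b), chr5:120907520-120907549 (Oas1a), chr5:120887606-120887635 (Oas1g), chr4:156200871-156200900 (Isg15), chr11:83020839-83020868 (Slfn8), chr12:26456553-26456582 (Rsad2), chr17:78882535-78882564 (Eif2ak2), chr8:61928024-61928053 (Ddx60), chr7:141010706-141010735 (Ifitm3) and chr7:104465210-104465239 (Trim30a). Those of Eif2ak2 and Ifitm3 lie just after the transcript start and the others before it.
Ifit1: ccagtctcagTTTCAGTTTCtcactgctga
Ifit3: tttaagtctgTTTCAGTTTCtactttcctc
Ifit3b: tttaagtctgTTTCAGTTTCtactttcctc
Oas1a: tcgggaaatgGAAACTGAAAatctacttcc
Oas1g: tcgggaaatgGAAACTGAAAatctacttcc
Isg15: gtaggaaaagGAAACCGAAAcagaaaatag
Slfn8: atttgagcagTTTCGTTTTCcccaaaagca
Rsad2: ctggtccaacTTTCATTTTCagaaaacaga
Eif2ak2: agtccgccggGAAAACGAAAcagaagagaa
Ddx60: gtgatgaatgGAAACCGAAActtaaagctt
Ifitm3: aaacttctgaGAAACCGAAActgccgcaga
Trim30a: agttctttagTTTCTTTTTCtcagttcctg

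The ligands of this program were at the limit of detection. Of 18 type I interferon genes (13 Ifna genes with Ifnb1, Ifnab, Ifne, Ifnk and Ifnz), 8 had no read in any library, no gene had more than 2 reads in a library, and all 12 libraries together held 24 reads, 8 of them in aged ICH 1. None passed the filter on low counts and none was tested. At this depth 3 reads, the upper limit that a count of 0 allows, correspond to 0.0828 to 0.101 CPM, a limit that covers counting error only, so that a difference in ligand transcripts was not detectable while each of the 40 members was.

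Of 6 interferon receptor genes, 4 were upregulated in young ICH (Ifnar2, Ifngr1, Ifnlr1 and Il10rb) and 3 in aged ICH (Ifnar2, Ifngr1 and Il10rb). The interaction log2FC of the 6 ran from -1.42 to 0.05. By edgeR 1 was lower in the interaction at an unadjusted *P* under 0.05 (0.0478, against 411 of 21495 genes tested), 0 were higher and 0 passed after adjustment. Ifnar2, the signaling chain of the type I receptor, was at 12.4, 13.6 and 13.8 CPM in young sham, 15.1, 16.5 and 19.4 CPM in young ICH, 14.1, 14.3 and 14.1 CPM in aged sham and 19.5, 18.6 and 18.5 CPM in aged ICH. In Ifnar2, ICH and sham did not overlap at either age, with a young log2FC of 0.36 (edgeR adjusted *P* = 0.0215, SE 0.09) and an aged log2FC of 0.41 (edgeR adjusted *P* = 0.0167, SE 0.09). Ifnar1, the other chain, had a log2FC of 0.06 and 0.09 (edgeR adjusted *P* = 0.673 and 0.525). The young count was 2 without young sham 2, without young ICH 3 or without the high-Ttr libraries, and the aged count was 0 without aged sham 1, aged sham 2, aged ICH 1 or the high-Ttr libraries.

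Of the genes downstream of the receptor that are reported here, Tyk2 was upregulated in young ICH and Stat2 and Irf9 in aged ICH. Stat2 had a log2FC of 0.57 in young ICH (edgeR adjusted *P* = 0.0557) and 1.10 in aged ICH (edgeR adjusted *P* = 0.00661), with an unadjusted interaction *P* of 0.0727. Irf9 had a log2FC of 0.66 in young ICH (edgeR adjusted *P* = 0.0522) and 0.97 in aged ICH (edgeR adjusted *P* = 0.0153), with an unadjusted interaction *P* of 0.320. Tyk2 had a young log2FC of 0.40 (edgeR adjusted *P* = 0.0137). The aged call of Irf9 was lost without aged ICH 1 and without the high-Ttr libraries, and that of Stat2 held in each alternative. In young ICH, Stat2 and Irf9 were both called by DESeq2, with no filter on low counts, with only the compared groups in the fit, with replicate number as a block and without aged sham 2 or aged ICH 2. Irf9 was also called there with a stricter filter and without young sham 3, and Stat2 without aged ICH 1. Tyk2 was called in aged ICH without aged ICH 2.

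Of 6 interferon regulatory factors, Irf3, Irf5 and Irf8 were upregulated at both ages and Irf1 in aged ICH. Irf7, the factor best known for amplifying interferon alpha production, was at 7.71, 6.76 and 17.9 CPM in young sham, 10.1, 9.79 and 16.5 CPM in young ICH, 18.3, 4.38 and 11.1 CPM in aged sham and 40.5, 26.0 and 23.9 CPM in aged ICH. The young groups overlapped and the aged groups did not. Irf7 had a log2FC of 0.17 in young ICH and 1.42 in aged ICH, the latter with an edgeR adjusted *P* of 0.0698. Irf1 had a young log2FC of 0.37 (edgeR adjusted *P* = 0.180) and an aged one of 0.96 (edgeR adjusted *P* = 0.00915), with an unadjusted interaction *P* of 0.0439 (edgeR adjusted *P* = 0.9999). Irf3 had a log2FC of 0.59 and 0.45, Irf5 of 0.89 and 0.65 and Irf8 of 0.52 and 0.62 in young and aged ICH. The aged count of 4 was 2 without aged ICH 1 and 1 without the high-Ttr libraries.

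Of 11 nucleic acid sensors and adaptors, 3 were upregulated in young ICH (Mavs, Mb21d1 and Tlr7) and 6 in aged ICH (Ddx58, Dhx58, Mb21d1, Tlr7, Tmem173 and Zbp1). Tlr7, an endosomal RNA sensor, had a log2FC of 1.21 in young ICH and 0.93 in aged ICH, and Mb21d1, the DNA sensor cGAS, of 0.75 and 0.61. Ddx58, the RNA sensor RIG-I, had a young log2FC of 0.70 (edgeR adjusted *P* = 0.0912) and an aged one of 1.18 (edgeR adjusted *P* = 0.0171). The aged count of 6 was 1 without aged ICH 1, 2 without aged sham 2 or aged ICH 3, 3 without young sham 1 or aged sham 3 and 0 without the high-Ttr libraries, and the young count of 3 was 1 without young sham 2. Of 4 negative regulators, Socs1, Socs3 and Ptpn6 rose and Pias1 fell at both ages. Socs3, a feedback inhibitor of JAK kinases, had a log2FC of 2.17 in young ICH (edgeR adjusted *P* = 0.00460) and 1.81 in aged ICH (edgeR adjusted *P* = 0.0137). The 3 aged calls of higher genes were lost without aged ICH 1 and without the high-Ttr libraries, and the aged call of Pias1 without aged sham 1, aged sham 2, aged ICH 1, aged ICH 3 or the high-Ttr libraries.

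Relatives of the members that are not on the list were 27, of which 22 were tested. Of these 7 were upregulated in young ICH (Ifitm1, Ifitm2, Ifitm6, Slfn2, Trim30b, Trim30d and Zc3hav1) and 11 in aged ICH, the same 7 with Parp10, Slfn1, Slfn9 and Trim30c. Ifitm2 was at 3.87, 3.65 and 4.75 CPM in young sham, 9.14, 10.0 and 15.3 CPM in young ICH, 4.04, 2.93 and 5.60 CPM in aged sham and 12.04, 10.9 and 11.6 CPM in aged ICH. In Ifitm2, ICH and sham did not overlap at either age, with a young log2FC of 1.49 (edgeR adjusted *P* = 0.00273, SE 0.24) and an aged log2FC of 1.45 (edgeR adjusted *P* = 0.00558, SE 0.24). Parp10, a mono-ADP-ribosyltransferase, had a young log2FC of 0.53 (edgeR adjusted *P* = 0.0570) and an aged one of 1.14 (edgeR adjusted *P* = 0.00514), with an unadjusted interaction *P* of 0.0326. The aged count of 11 was 4 without aged ICH 1, 7 without aged sham 2 and 3 without the high-Ttr libraries, and the young count of 7 was 4 without the high-Ttr libraries.

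Markers of the cells that can express the members moved with ICH, and their part in the results was not tested. Of 8 neutrophil genes 7 were tested and all 7 rose in young ICH and 6 in aged ICH, where the count was 1 without aged ICH 1, 2 without aged sham 1 and 0 without the high-Ttr libraries. Their summed level, with Csf3r the most abundant, was 11.1, 13.7 and 11.3 CPM in young sham, 21.9, 39.4 and 34.8 CPM in young ICH, 16.1, 16.6 and 25.6 CPM in aged sham and 54.3, 47.3 and 39.5 CPM in aged ICH. The interaction log2FC was above 0 for 0 of the 7 neutrophil genes. By edgeR 2 of them were lower in the interaction at an unadjusted *P* under 0.05 (411 of 21495 genes tested) and 0 after adjustment. Of 7 genes of infiltrating monocytes 4 rose at each age (Ccr2, Chil3, F13a1 and Fn1), and the aged count was 2 without aged sham 1 and 1 without the high-Ttr libraries, while Vcan was lower without aged ICH 2. Their summed level, with Fn1 the most abundant, was 155, 137 and 143 CPM in young sham, 284, 264 and 313 CPM in young ICH, 144, 112 and 191 CPM in aged sham and 320.4, 255 and 299 CPM in aged ICH. ICH and sham libraries did not overlap for either sum at either age. Of 8 genes of homeostatic microglia P2ry12 fell at both ages and Fcrls rose in aged ICH, and the sum, with Csf1r the most abundant, was 472, 422 and 398 CPM in young sham, 463, 433 and 503 CPM in young ICH, 448, 419 and 429 CPM in aged sham and 496, 462 and 436 CPM in aged ICH. In young ICH Fcrls was called by DESeq2 and without young sham 1, young ICH 2 or aged sham 2. In aged ICH it was not called without aged sham 2, without aged ICH 1 or without the high-Ttr libraries, where P2ry12 was not called either.

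Of 5 astrocyte genes 3 rose in young ICH (Aqp4, Aldh1l1 and Gfap), and in aged ICH Aldh1l1 and Gfap rose and Gja1 fell; the sum, with Gfap the most abundant, was 1732, 1495 and 1708 CPM in young sham, 2677, 2634 and 3401 CPM in young ICH, 1976, 1524 and 2049.8 CPM in aged sham and 3088, 2677 and 2912 CPM in aged ICH. In the aged comparison, the count of astrocyte genes that rose was 1 without aged ICH 1 or aged ICH 3 and 0 without the high-Ttr libraries, and the fall of Gja1 was lost without aged sham 2, aged sham 3, aged ICH 1, aged ICH 3 or the high-Ttr libraries. All 5 endothelial genes rose in young ICH and 3 in aged ICH (Cldn5, Pecam1 and Cdh5), with a sum, with Flt1 the most abundant, of 247, 196 and 221 CPM in young sham, 326, 309 and 345 CPM in young ICH, 233, 260.2 and 275 CPM in aged sham and 359, 304 and 294 CPM in aged ICH. The young count was 3 without young sham 2 or young ICH 1, and the aged count 0 without the high-Ttr libraries.

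Of 9 genes of T and NK cells 5 were tested and 2 rose in young ICH (Cd3e and Nkg7), and 3 did by DESeq2. The young count was 0 without young ICH 1, young sham 1, young sham 2, aged sham 1 or aged sham 2, 1 without aged sham 3, any aged ICH library or the high-Ttr libraries, and 4 without young ICH 2. The young count was also 0 with only the compared groups in the fit, and 0 with a stricter filter, where 1 gene of the list was tested. Without the high-Ttr libraries, which left 2 young ICH libraries, Cd4 was called lower in young ICH. In aged ICH edgeR called 0, DESeq2 called 0 and 1, Cd4, was lower at an unadjusted *P* under 0.05. The aged fall of Cd4 was called without aged ICH 2. The sum, with Cd4 the most abundant, was 36.0, 19.6 and 20.4 CPM in young sham, 23.7, 7.62 and 20.4 CPM in young ICH, 28.9, 28.2 and 19.3 CPM in aged sham and 4.66, 21.1 and 10.6 CPM in aged ICH. Of 5 red cell genes 3 rose in young ICH (Hbb-bs, Hba-a1 and Hba-a2), 5 without aged ICH 3, with a sum, with Hbb-bs the most abundant, of 5.20, 22.4 and 7.36 CPM in young sham, 29.0, 121 and 52.2 CPM in young ICH, 39.5, 27.8 and 36.8 CPM in aged sham and 29.8, 24.3 and 82.0 CPM in aged ICH. In aged ICH edgeR called 0 red cell genes, with 1 (Alas2) at an unadjusted *P* under 0.05, 0 by DESeq2 and 1 by edgeR without the high-Ttr libraries. No gene of the marker lists was at 0 in all libraries. Of the 9 striatal genes edgeR called none at either age, with 1 lower at an unadjusted *P* under 0.05, Pde10a, at each age, and 0 by DESeq2; without aged ICH 2, 7 were lower in aged ICH and 1 in young ICH, where 1 was also lower without the high-Ttr libraries. Of the 5 choroid plexus genes edgeR called none at either age, with 0 in young ICH at an unadjusted *P* under 0.05 and 0 by DESeq2, 3 higher in aged ICH at an unadjusted *P* under 0.05 (Ttr, Folr1 and Kcne2) and 1 by DESeq2 (Ttr), and 4 were called in aged ICH without young ICH 3.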

How the data were processed

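RNA-seq was made from 12 pooled caudate putamen samples, 3 in each of 4 groups. According to the methods of the study, the authors aligned reads to GRCm38.p6 with HISAT2 and counted them per gene with featureCounts. They deposited raw counts and FPKM for each sample; 387 entries without a gene name were kept. Counts were tested with edgeR 4.0.16 (limma 3.58.1, R 4.3.3): TMM normalization, filterByExpr with a minimum count of 10, 1 mean per group over all 12 samples, and the quasi-likelihood test for 5 contrasts, checked on simulated counts. DESeq2 1.42.0, other scaling, filters, samples and a replicate block were alternatives, with 1 added after seeing the data. FPKM served only to compare genes. CPM used TMM-scaled library sizes. Named genes followed a rule: all members, with every sample given for the highest mean CPM of each family, the 5 smallest interaction *P* and the 3 largest *P* of each ICH comparison; Oas2, Parp9, Eif2ak2 and Ifi35, upregulated at both ages, were added after their values were seen, as were Ifnar2, Irf7 and Ifitm2. Pathway and marker genes were named where called or where their role needed it, and some of these results are not reported here. Members and lists were chosen with earlier results of these data known. Total counts of 28410896 to 37785160 set the precision, and counts of replicates differed beyond sampling noise (chi-square per gene 9.25 to 42.7).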

Additional observations from a re-analysis of the deposited data

How the results depend on the processing

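The young count of 6 upregulated members was 10 by DESeq2, ranged from 0 to 11 when each library was left out in turn, and was 0 without the 3 libraries with Ttr above 1000 CPM. The aged count of 25 was 16 with only the aged groups in the fit, ranged from 1 to 27 when each library was left out in turn, and was 0 without the 3 high-Ttr libraries. In aged ICH vs. young ICH, 2 members were called by DESeq2 and 0 by edgeR. No filter on low counts gave 9 and 36 upregulated members in young and aged ICH, against 4.65% and 3.36% of all genes. A stricter filter gave 7 and 28 (12.4% and 9.06% of all genes), and relative log expression 6 and 25 (9.53% and 6.88%). With replicate number as a block the counts were 9 and 37 (8.69% and 6.48% of all genes), and 0 for the interaction (0%). Libraries with the same number correlated from -0.45 to 0.23 in their deviations from the group means, so the numbers did not pair the samples. The young log2FC changed sign for 4 members: Uba7 (-0.0167 without young ICH 3, -0.0177 without the high-Ttr libraries and up to 0.353 without young ICH 1), Herc6 (-0.00534 by DESeq2, -0.00344 by relative log expression, -0.145 without young sham 1, -0.0662 without young sham 2, -0.117 without young ICH 2 and up to 0.259 without young sham 3), Ddx60 (-0.000843 without young sham 1, -0.0339 without young sham 2, -0.0595 without young ICH 3, -0.0621 without the high-Ttr libraries and up to 0.593 without young sham 3) and Ifi27l2a (-0.0200 without young ICH 3, -0.0225 without the high-Ttr libraries and up to 0.863 without young sham 3). Fewer samples entered the fits with libraries left out; otherwise the cause was not tested. Depth limited the ligands, which stood at 0 to 2 reads per gene in a library, and the lowest members such as Oas3, with 5 reads in aged sham 2.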

Other observations

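Of the 9 genes of T and NK cells, Cd3e, Cd8a and Nkg7 were highest in young ICH 1, with 2.15 CPM of Cd3e, 3.28 CPM of Cd8a and 1.80 CPM of Nkg7, while the other 11 libraries had at most 0.693 CPM of Cd3e. The sum of the 9, with Cd4 the most abundant, was instead highest in young sham 1, at 36.0 CPM against 23.7 CPM in young ICH 1. Alas2, an enzyme of heme synthesis in red cell precursors, was at 24.6 CPM in aged ICH 3 and at most 3.56 CPM in the other libraries. Young ICH 1 was the highest of its group for 3 members and aged ICH 3 for 0.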
